A study of Mus musculus with 15 samples.

Results

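LY294002, an inhibitor of phosphatidylinositol 3-kinase (PI3K), was set against U0126, an inhibitor of the MAP kinase kinases MEK1 and MEK2, in primary chondrocytes of the mouse. The comparison used 6 of the 15 arrays of the study, 3 of cells treated with LY294002 and 3 of cells treated with U0126, chosen by treatment alone. The cells came from hind limb cartilage of CD1 mice at embryonic day 15.5 and were kept in monolayer culture, and the labels name no genetic change. LY294002 was used at 10 µM in the methods of the study. The dose of U0126, which the labels spell UO126, is not given in the sources used here, so a matched dose cannot be assumed. Treatment lasted 24 h in the labels and methods, while the deposited design text gives 2 h. Cells treated with DMSO, the vehicle, gave another 3 arrays and are set beside both inhibitors, and the 6 remaining arrays, of SB202190 and Trichostatin A, entered only the estimate of the spread. Each pathway was targeted by 1 compound at 1 dose. The arrays measured RNA and not kinase activity, so the degree of block of either pathway was not measured. In a mixed culture fewer cells of a type cannot be told apart from less RNA per cell.

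PI3K makes the membrane lipid that recruits and activates the kinase Akt. Akt holds the FOXO transcription factors out of the nucleus and acts on mTOR complex 1, which promotes protein and lipid synthesis and restrains the lysosomal factors TFEB and MITF. LY294002 also acts on kinases related to PI3K, such as mTOR. MEK1 and MEK2 phosphorylate the kinases ERK1 and ERK2, which induce immediate early genes and ETS factors and their own negative feedback, the DUSP phosphatases and Sprouty proteins. Both pathways lie downstream of the same growth factor receptors, and in the growth plate both are known to act on the passage from proliferating to hypertrophic chondrocytes.

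Values are the deposited log2 signals of 45037 probe sets, the oligonucleotide sets of the array, which share no scale between genes. A probe set was tested where its mean signal was at least 50 in LY294002 or in U0126, which kept 34496. Differences are LY294002 minus U0126 on the log2 scale, so a difference of 1 is a fold of 2, and adjusted p-values come from limma over all probe sets tested. Higher, lower, rose and fell refer to this difference unless DMSO is named. A gene was called higher or lower at an adjusted p under 0.05. Median signals were 6.902 to 6.996 over the arrays, and arrays of a treatment correlated at 0.989 to 0.996. Col2a1, the type II collagen of cartilage, was at 14.42, 14.44 and 14.43 in LY294002, against 14.43, 14.397 and 14.42 in U0126 and 14.36, 14.29 and 14.30 in DMSO, near the top of the scale on all of these arrays, and none of the 11 chondrocyte markers was called. Between LY294002 and U0126, arrays with the same replicate number deviated together, least clearly in replicate 3. Results whose call differs when the replicate number is a block in the model are therefore given both ways. The permutation test of 3 against 3 arrays cannot go below an exact p of 0.1, so the tests rest on the spread pooled over the treatments.

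Of the 34496 probe sets, 1945 (5.64%) were called, 1376 of them higher (3.99%, 998 named genes) and 569 lower (1.65%, 457 named genes) in LY294002 than in U0126. Most differences were small. The median size was 0.12, a fold of 1.09, beside a median standard error of 0.104, and 99% of the probe sets differed by less than 1.64-fold. Called differences of at least 1.4-fold numbered 690 higher and 271 lower, and those of at least 2-fold 63 higher and 27 lower. All 3 LY294002 arrays lay above all 3 U0126 arrays in 13.3% of the probe sets tested and below them in 10.2%. Under the replicate block 4828 probe sets (14.0%) were called, 3347 higher (9.70%) and 1481 lower (4.29%), including all 1945. The counts of called list members given below, with and without the block, are to be read beside these shares. The count depended on single arrays: omitting LY294002 replicate 1 left 507 higher and 418 lower, omitting U0126 replicate 2 left 567 and 378, omitting U0126 replicate 3 left 737 and 314, and omitting LY294002 replicate 2 left 934 and 331. Omissions of single arrays, here and for the genes below, were made in the fit without the replicate block. Each omission also leaves a replicate number incomplete. Against DMSO, LY294002 had 2978 called probe sets (8.62%) and U0126 had 667 (1.93%). Both of those comparisons share the DMSO arrays, so the values of both are given side by side where DMSO is brought in.

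**Figure D1:**
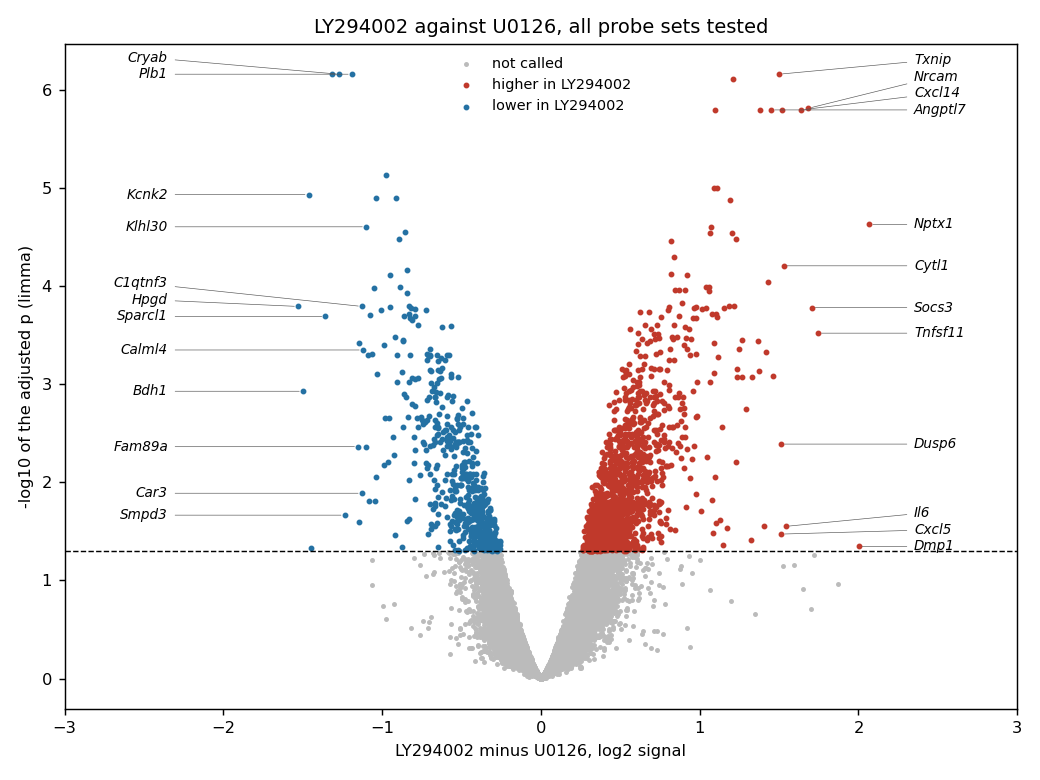
Each point is 1 of the 34496 probe sets, with the log2 difference LY294002 minus U0126 on the x axis and the negative log10 of the adjusted limma p on the y axis; called probe sets are coloured and the 12 largest called increases and decreases are labelled. Differences ran from -1.53 for Hpgd to 2.07 for Nptx1, and most called points lie on the side of higher signal in LY294002.

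The called increase of largest size was in Nptx1, whose other tested probe set was not called. Nptx1, which encodes neuronal pentraxin 1, had log2 signals of 8.23, 7.68 and 7.27 in LY294002, against 5.85, 5.498 and 5.63 in U0126 and 7.93, 7.53 and 7.19 in DMSO (difference 2.07, SE 0.198, adjusted p = 2.35e-05, 4.19-fold). All of its LY294002 arrays lay within the DMSO range or just above it, and the U0126 arrays lay far below both. Its U0126 mean of 5.66 lay close to the signal filter, which is 5.64 on the log2 scale. Tnfsf11, which encodes RANKL, the ligand that drives osteoclast formation, was at 8.08, 7.42 and 7.72 in LY294002, against 6.25, 5.70 and 6.04 in U0126 and 7.74, 7.05 and 7.65 in DMSO (difference 1.75, SE 0.226, adjusted p = 0.000302). Socs3, an inhibitor of JAK and STAT signaling, was at 11.46, 10.98 and 11.10 in LY294002, against 9.62, 9.21 and 9.59 in U0126 and 11.23, 10.89 and 10.72 in DMSO (difference 1.71, SE 0.203, adjusted p = 0.000166). For both genes the U0126 arrays lay below all others. The lack of overlap with LY294002 was a condition for choosing the 12 largest increases and decreases, so it is no separate result for them. Against DMSO the differences were 0.26 for LY294002 minus DMSO (adjusted p = 0.488) and -1.48 for U0126 minus DMSO (adjusted p = 0.00142) in Tnfsf11. In Socs3 they were 0.23 for LY294002 minus DMSO (adjusted p = 0.49) and -1.47 for U0126 minus DMSO (adjusted p = 0.000629). Nrcam, a neuronal cell adhesion molecule, was at 8.76, 8.84 and 8.80 in LY294002, against 7.03, 7.22 and 7.10 in U0126 and 8.27, 8.13 and 8.44 in DMSO (difference 1.68, SE 0.124, adjusted p = 1.54e-06), while neither of its 2 other tested probe sets was called and 1 had the opposite sign. Cytl1, a secreted protein made by chondrocytes, was at 12.27, 12.32 and 12.40 in LY294002, against 10.39, 10.84 and 11.16 in U0126 and 11.80, 11.80 and 11.83 in DMSO (difference 1.53, SE 0.162, adjusted p = 6.21e-05). Its LY294002 arrays were the highest of the 9 and its U0126 arrays the lowest.

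Txnip, which binds thioredoxin and restrains glucose uptake, and Angptl7, a secreted angiopoietin-like protein, stood apart from those genes in their position relative to DMSO. Txnip was at 11.21, 11.15 and 11.20 in LY294002, against 9.52, 9.63 and 9.91 in U0126 and 9.98, 10.001 and 10.15 in DMSO (difference 1.5, SE 0.102, adjusted p = 6.92e-07, 2.83-fold). The LY294002 arrays were the ones set apart, with differences of 1.14 for LY294002 minus DMSO (adjusted p = 1.74e-05) and -0.36 for U0126 minus DMSO (adjusted p = 0.0993). Angptl7 was at 11.45, 11.18 and 11.32 in LY294002, against 9.83, 9.78 and 9.99 in U0126 and 10.25, 10.15 and 10.56 in DMSO (difference 1.45, SE 0.111, adjusted p = 1.6e-06). Its differences were 0.998 for LY294002 minus DMSO (adjusted p = 9.78e-05) and -0.45 for U0126 minus DMSO (adjusted p = 0.0471), both called. Dmp1, a matrix phosphoprotein of mineralizing tissue, had the second largest difference but scattered widely, at 8.38, 8.32 and 7.21 in LY294002, against 5.59, 6.29 and 6.02 in U0126 and 8.13, 7.35 and 6.55 in DMSO (difference 2.00, SE 0.556, adjusted p = 0.045). Dmp1 lost its call without LY294002 replicate 1 or 2 or U0126 replicate 1, 2 or 3 (adjusted p = 0.0912 to 0.174). Its adjusted p was 0.0207 with the replicate block, and over all alternatives it reached 0.394.

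**Figure D2:**
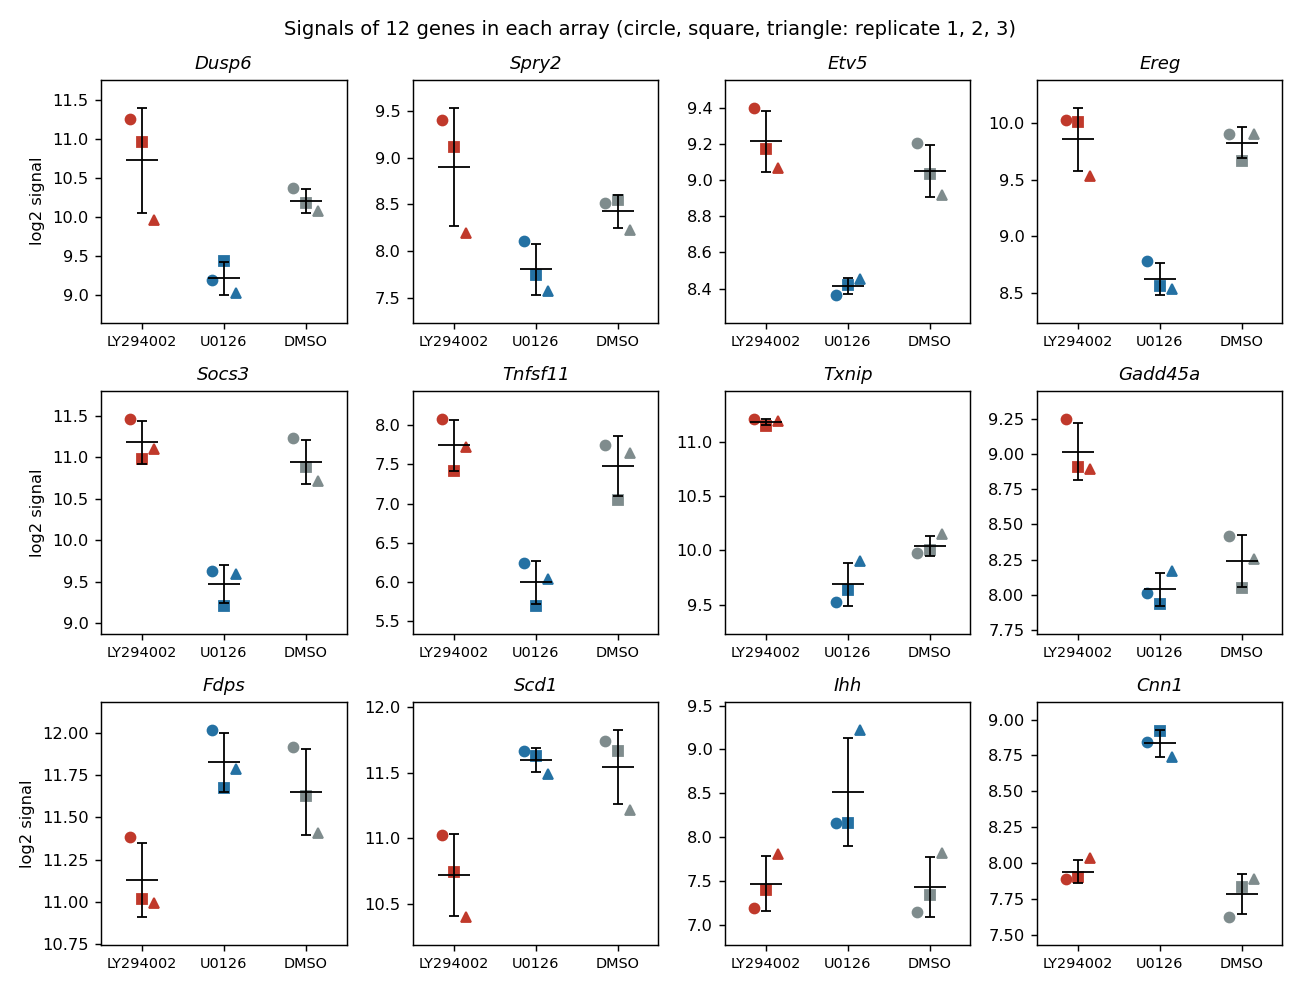
Log2 signal of 12 genes on each LY294002, U0126 and DMSO array, left to right; circles, squares and triangles are replicates 1, 2 and 3, and bars give the mean with its SD (n = 3). In Socs3 and Tnfsf11 the U0126 arrays sit below the other groups, in Txnip and Gadd45a the LY294002 arrays sit above them, and in Fdps and Scd1 the LY294002 arrays sit below those of U0126.

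The called decrease of largest size was in Hpgd, whose other tested probe set was not called. Hpgd, the dehydrogenase that inactivates prostaglandins, was at 7.34, 7.08 and 6.72 in LY294002, against 8.70, 8.64 and 8.39 in U0126 and 9.39, 9.08 and 8.85 in DMSO (difference -1.53, SE 0.18, adjusted p = 0.000161), with every LY294002 array below every array of the other groups. Bdh1, an enzyme of ketone body metabolism, was at 5.61, 5.73 and 6.07 in LY294002, against 7.13, 7.14 and 7.63 in U0126 and 6.72, 6.28 and 7.04 in DMSO (difference -1.5, SE 0.231, adjusted p = 0.00118). Other decreases had the U0126 arrays above DMSO. Cryab, a small heat shock protein, was at 8.92, 8.89 and 8.80 in LY294002, against 10.13, 10.16 and 10.14 in U0126 and 9.10, 9.11 and 9.04 in DMSO (difference -1.27, SE 0.0857, adjusted p = 6.92e-07) and varied little within each treatment. Kcnk2, a potassium channel of the TREK type, was at 8.79, 8.98 and 9.03 in LY294002, against 10.30, 10.24 and 10.66 in U0126 and 9.40, 9.44 and 9.25 in DMSO (difference -1.46, SE 0.131, adjusted p = 1.17e-05). U0126 minus DMSO was 1.06 in Cryab (adjusted p = 6.29e-06) and 1.03 in Kcnk2 (adjusted p = 0.000304), and LY294002 minus DMSO was -0.21 (adjusted p = 0.141) and -0.43 (adjusted p = 0.0521). C1qtnf3, a secreted C1q and TNF related protein, was at 10.69, 10.90 and 10.76 in LY294002, against 11.91, 11.84 and 11.98 in U0126 and 10.83, 10.66 and 10.74 in DMSO (difference -1.13, SE 0.133, adjusted p = 0.000161). Its LY294002 arrays overlapped those of DMSO and its U0126 arrays did not. The matricellular protein Sparcl1 (-1.36, adjusted p = 0.000204), the phospholipase Plb1 (-1.19, adjusted p = 6.92e-07) and the kelch family member Klhl30 (-1.10, adjusted p = 2.49e-05) also fell. For Plb1, neither of 2 other tested probe sets was called, and 1 had the opposite sign. Fam89a (-1.15, adjusted p = 0.00433) and the calmodulin-like gene Calml4 (-1.12, adjusted p = 0.000448) kept their calls under each single omission. Smpd3, a neutral sphingomyelinase needed for skeletal mineralization, was at 8.57, 8.70 and 9.33 in LY294002 and 9.75, 9.86 and 10.69 in U0126 (-1.24, adjusted p = 0.0216), and Car3, a carbonic anhydrase, at 7.24, 7.16 and 6.904 in LY294002 and 8.04, 8.40 and 8.26 in U0126 (-1.13, adjusted p = 0.0129). Smpd3 lost its call without LY294002 replicate 1 or 2 or U0126 replicate 3 (adjusted p = 0.0784 to 0.113) and Car3 without U0126 replicate 2 (adjusted p = 0.0629). Over all alternatives the adjusted p of these 2 genes ran from 8.94e-08 to 0.26.

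**Figure D3:**
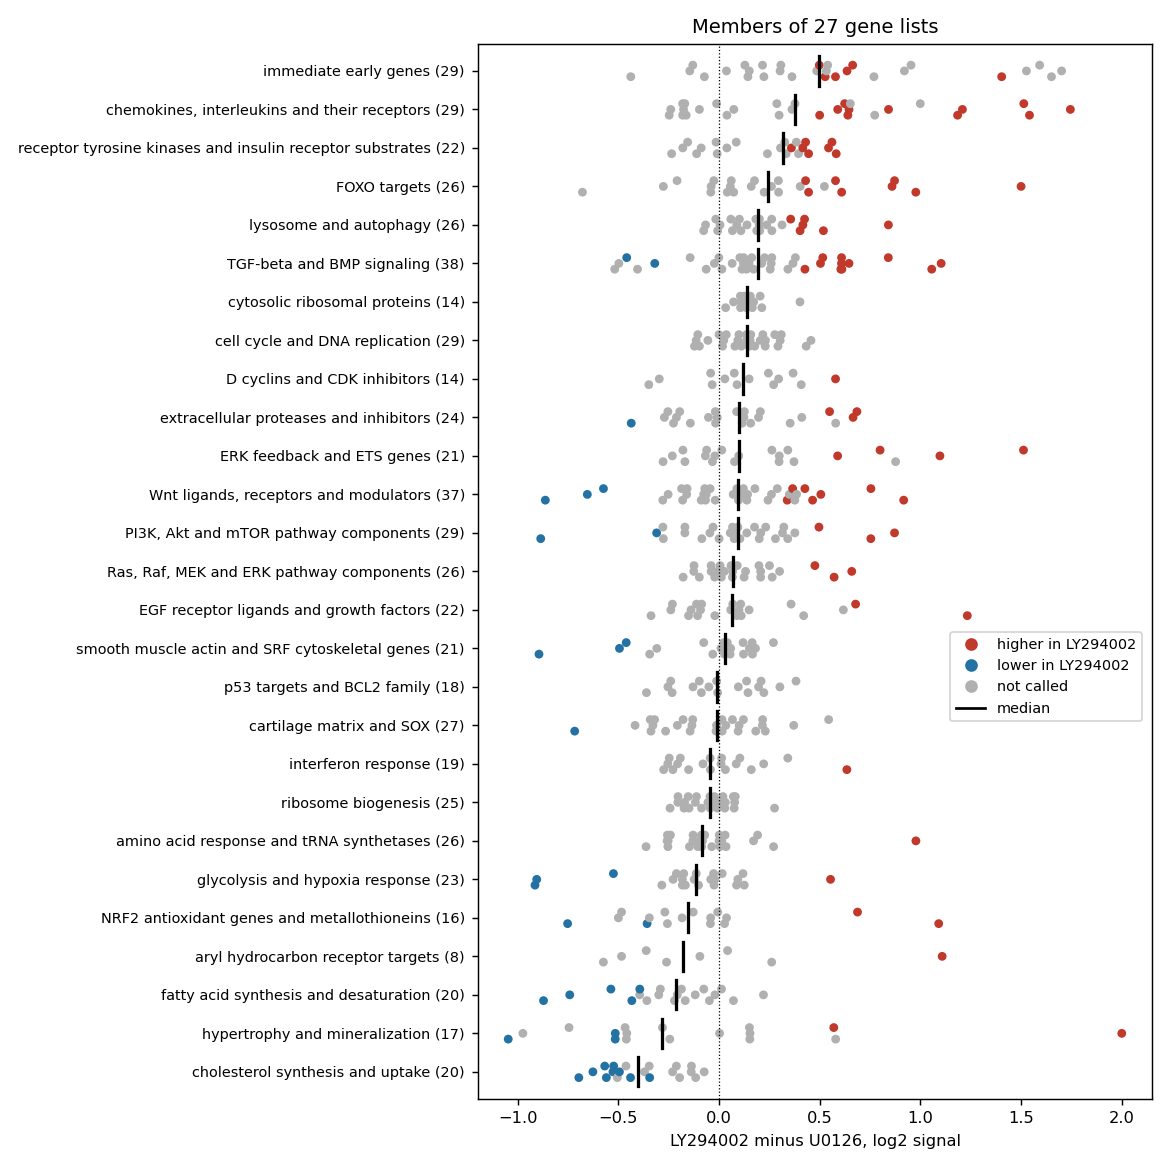
Differences LY294002 minus U0126 of the tested members of 27 gene lists, 1 point per gene, coloured by call, with a bar at each list's median. The medians run from -0.40 for cholesterol synthesis to 0.50 for immediate early genes, beside -0.0087 over all probe sets tested.

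Genes of ERK feedback, which ERK is known to induce, had a few called differences. Of 21 such genes, 4 were called higher in LY294002 (against 3.99% of all probe sets) and none lower, 13 had the higher mean in LY294002, and the list median was 0.10 beside -0.0087 over all probe sets tested. Dusp6, the phosphatase that inactivates ERK1 and ERK2, was at 11.25, 10.96 and 9.96 in LY294002, against 9.19, 9.43 and 9.02 in U0126 and 10.37, 10.17 and 10.07 in DMSO (difference 1.51, SE 0.279, adjusted p = 0.00407, 2.85-fold). LY294002 replicate 3 was the lowest of its group and lay below every DMSO array, though still above every U0126 array. Spry2, a Sprouty inhibitor of receptor signaling, was at 9.41, 9.11 and 8.19 in LY294002, against 8.11, 7.75 and 7.57 in U0126 and 8.51, 8.55 and 8.23 in DMSO (difference 1.10, SE 0.227, adjusted p = 0.00891). Etv5, an ETS factor induced by ERK, was at 9.40, 9.17 and 9.07 in LY294002, against 8.37, 8.42 and 8.46 in U0126 and 9.21, 9.03 and 8.92 in DMSO (difference 0.80, SE 0.13, adjusted p = 0.00166), with the U0126 arrays below all others. Phlda1, another gene induced by ERK, rose by 0.59 (adjusted p = 0.00521). Against DMSO, Etv5 had 0.16 for LY294002 minus DMSO (adjusted p = 0.453) and -0.64 for U0126 minus DMSO (adjusted p = 0.0138). Phlda1 had 0.031 for LY294002 minus DMSO (adjusted p = 0.883) and -0.56 for U0126 minus DMSO (adjusted p = 0.0127), and Dusp6 0.52 for LY294002 minus DMSO (adjusted p = 0.267) and -0.99 for U0126 minus DMSO (adjusted p = 0.0896). Fosl1, the AP-1 subunit Fra-1 and a known ERK target, did not follow, at 8.52, 8.33 and 8.23 in LY294002, against 8.48, 8.57 and 8.57 in U0126 and 9.32, 9.25 and 9.49 in DMSO (difference -0.18, adjusted p = 0.361). Its arrays of both inhibitors lay below all DMSO arrays, with -0.99 for LY294002 minus DMSO (adjusted p = 7.17e-05) and -0.81 for U0126 minus DMSO (adjusted p = 0.000381). Spry2 lost its call without LY294002 replicate 1 or U0126 replicate 3 (adjusted p = 0.0507 to 0.0514). The other tested probe set of Spry2 had the opposite sign, without a call. The list median was 0.18 without LY294002 replicate 3. Against DMSO, 3 of the list were called lower in LY294002 and 3 in U0126 (1.78% and 0.792% of all probe sets), and none higher in either. With the replicate block 9 of the list were called higher and 1, Dusp9, lower (9.70% and 4.29% of all probe sets), Dusp5 among the higher (0.88, adjusted p = 0.0772, blocked 0.0015).

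The immediate early genes, which growth factors induce within minutes through ERK and other kinases, had the highest list median, 0.50. Of 29 tested, 25 had the higher mean in LY294002, but 6 were called higher (against 3.99% of all probe sets) and none lower. Fos, a subunit of AP-1, was at 12.37, 12.34 and 9.41 in LY294002, against 10.34, 10.27 and 8.40 in U0126 and 10.10, 10.21 and 9.54 in DMSO. Egr1, a zinc finger factor induced by ERK, was at 13.31, 13.30 and 11.50 in LY294002, against 11.60, 11.69 and 10.04 in U0126 and 12.15, 12.15 and 11.69 in DMSO. Ier2 was at 12.35, 12.56 and 10.52 in LY294002, against 10.46, 10.68 and 9.72 in U0126 and 10.96, 10.94 and 10.57 in DMSO. In all of these replicate 3 lay far below replicates 1 and 2 in both inhibitors, so the groups overlapped while the differences within a replicate number ran one way. Within replicates 1, 2 and 3 the differences were 2.02, 2.07 and 1.01 in Fos, 1.71, 1.61 and 1.46 in Egr1 and 1.90, 1.89 and 0.79 in Ier2. Fos had a difference of 1.70 (adjusted p = 0.193, blocked 0.000696), Egr1 1.59 (adjusted p = 0.0691, blocked 3.06e-05), Ier2 1.53 (adjusted p = 0.0713, blocked 0.000112) and the MAP kinase phosphatase Dusp1 0.95 (adjusted p = 0.0845, blocked 0.000814). Junb, an AP-1 subunit, was at 10.37, 10.63 and 9.25 in LY294002, against 8.77, 8.87 and 8.39 in U0126 and 9.56, 9.63 and 9.28 in DMSO (difference 1.404, SE 0.355, adjusted p = 0.0276). Nr4a2, an orphan nuclear receptor, was at 8.73, 8.61 and 8.56 in LY294002, against 8.07, 7.87 and 7.97 in U0126 and 7.81, 8.003 and 7.88 in DMSO (difference 0.66, SE 0.103, adjusted p = 0.00122), with the LY294002 arrays above all others, although 2 of its 5 other tested probe sets had the opposite sign. Klf10 (0.64, adjusted p = 0.022), the small MAF protein Maff (0.58, adjusted p = 0.0183), Ier5 (0.50, adjusted p = 0.0245) and Myc (0.53, adjusted p = 0.0164) rose less. Junb lost its call without LY294002 replicate 1 or 2 or U0126 replicate 2 or 3 (adjusted p = 0.0643 to 0.12), Klf10 without LY294002 replicate 1 or U0126 replicate 2 (adjusted p = 0.09 to 0.115) and Maff without LY294002 replicate 1 or 2 or U0126 replicate 3 (adjusted p = 0.0507 to 0.0894). Myc lost its call without LY294002 replicate 1 or U0126 replicate 2 (adjusted p = 0.0856 to 0.0924) and Ier5 without LY294002 replicate 1 or 2 or U0126 replicate 2 or 3 (adjusted p = 0.0771 to 0.123). Without LY294002 replicate 3, Fos, Egr1, Ier2 and Dusp1 were called (adjusted p = 0.0168, 0.00968, 0.0051 and 0.0183). In the immediate early list, the number called higher was 1 without LY294002 replicate 1, 2 without U0126 replicate 2, 3 without LY294002 replicate 2 or U0126 replicate 3 and 16 without LY294002 replicate 3. The replicate block called 17 higher (against 9.70% of all probe sets), and Junb had a blocked adjusted p of 5.63e-05. Against DMSO, 8 of the list were called higher and none lower in LY294002 (6.83% and 1.78% of all probe sets), and none higher and 1 lower in U0126 (1.14% and 0.792%).

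**Figure D4:**
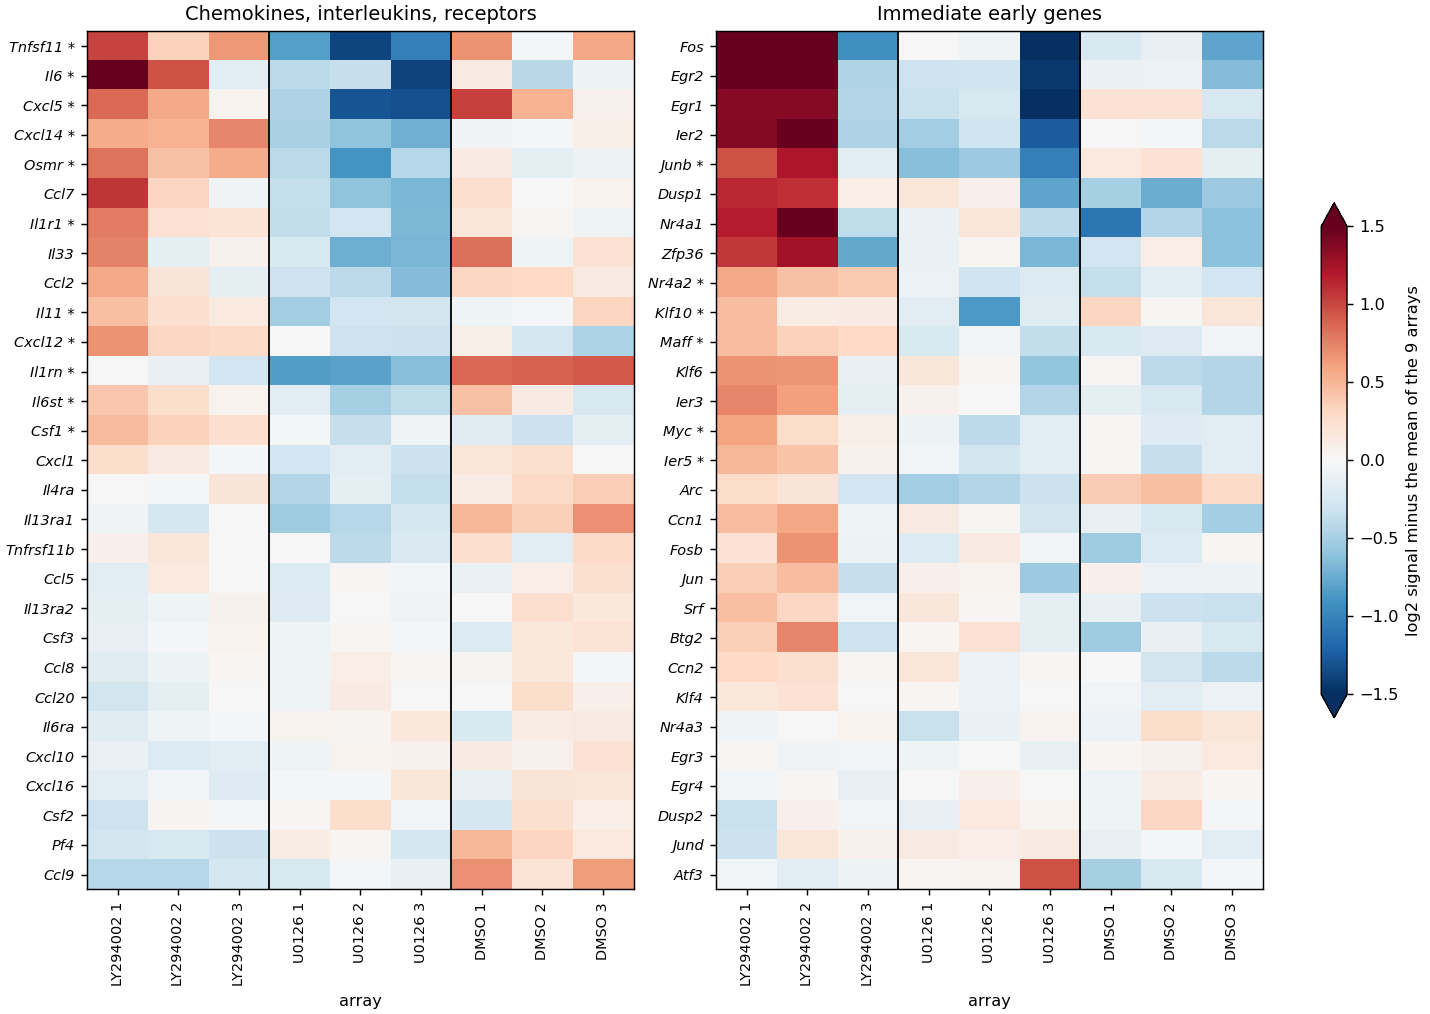
Log2 signal minus the mean of the 9 arrays for the chemokine and interleukin list and for the immediate early list, with the LY294002, U0126 and DMSO arrays in columns and an asterisk at called genes. Fos, Egr1 and Ier2 are high on LY294002 replicates 1 and 2 and low on replicate 3, whereas Tnfsf11 and Osmr are low on all 3 U0126 arrays.

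Of the EGF receptor ligands and other growth factors, 2 of 22 tested were called higher (against 3.99% of all probe sets) and none lower (list median 0.06). Both bind the EGF receptor. Ereg, epiregulin, was at 10.02, 10.01 and 9.54 in LY294002, against 8.78, 8.56 and 8.53 in U0126 and 9.91, 9.67 and 9.91 in DMSO (difference 1.23, SE 0.178, adjusted p = 0.000703). Hbegf, heparin-binding EGF, was at 9.03, 8.81 and 8.63 in LY294002, against 8.14, 8.10 and 8.20 in U0126 and 8.88, 8.59 and 9.06 in DMSO (difference 0.68, SE 0.127, adjusted p = 0.00441). In both the LY294002 arrays overlapped DMSO and the U0126 arrays were lowest, with U0126 minus DMSO of -1.20 (adjusted p = 0.00114) in Ereg and -0.70 (adjusted p = 0.00626) in Hbegf. Igf1, insulin-like growth factor 1, had a difference of 0.62 (adjusted p = 0.135, blocked 0.0031). Blocked by replicate, 5 were called higher and 1, Btc, lower.

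Some of the receptors on which both pathways converge were called higher in LY294002, with calls that depended on single arrays. Of 22 receptor tyrosine kinases and insulin receptor substrates tested, 7 were called higher (against 3.99% of all probe sets) and none lower, with a list median of 0.32. That median was 0.21 without U0126 replicate 2 and 0.15 with the mean of a gene's probe sets. Igf1r, the receptor for insulin-like growth factors, was at 11.16, 10.86 and 10.94 in LY294002, against 10.60, 10.08 and 10.53 in U0126 and 10.22, 10.27 and 10.28 in DMSO (difference 0.58, SE 0.141, adjusted p = 0.0226). Insr, the insulin receptor, was at 8.61, 8.27 and 8.31 in LY294002, against 7.95, 7.92 and 7.99 in U0126 and 7.86, 7.799 and 7.69 in DMSO (difference 0.44, SE 0.108, adjusted p = 0.0225). The other tested probe set of Insr and 1 of the 4 others of Igf1r had the opposite sign, without a call. On the probe sets shown the LY294002 arrays lay above all others, with LY294002 minus DMSO of 0.73 (adjusted p = 0.00495) in Igf1r and 0.61 (adjusted p = 0.00264) in Insr. Egfr, the EGF receptor (0.56, adjusted p = 0.0082), Pdgfra, a PDGF receptor (0.54, adjusted p = 0.0456), and the adaptor Irs2 (0.43, adjusted p = 0.0429) were the other named members called, and the receptor tyrosine kinases Axl (0.42) and Erbb2 (0.36) the remaining 2. Each of these 7 calls was lost without 1 or more single arrays. Igf1r lost its call without LY294002 replicate 1 or U0126 replicate 2 (adjusted p = 0.112 to 0.122), Insr without LY294002 replicate 1 or U0126 replicate 1, 2 or 3 (adjusted p = 0.0509 to 0.118) and Egfr without U0126 replicate 2 (adjusted p = 0.0522). Pdgfra lost its call without LY294002 replicate 1 or 2 or U0126 replicate 2 or 3 (adjusted p = 0.0866 to 0.225), Irs2 without LY294002 replicate 1, 2 or 3 or U0126 replicate 1, 2 or 3 (adjusted p = 0.0631 to 0.125) and Axl without LY294002 replicate 1 or U0126 replicate 2 (adjusted p = 0.101 to 0.106). Erbb2 lost its call without LY294002 replicate 1 or 2 or U0126 replicate 2 or 3 (adjusted p = 0.0766 to 0.193). In the receptor list, the number called higher was 0 without U0126 replicate 2, 1 without LY294002 replicate 1, 3 without U0126 replicate 3 and 4 without LY294002 replicate 2. Blocked, 12 were called higher. Pdgfra is also a marker of fibroblasts.

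Among the 29 components of the PI3K, Akt and mTOR pathway, 3 were called higher (against 3.99% of all probe sets) and 2 lower (against 1.65%), with a list median of 0.09. That median was 0.0096 after quantile normalization and 0.048 without U0126 replicate 2. Pik3r3, a regulatory subunit of PI3K, was at 8.05, 7.94 and 7.78 in LY294002, against 8.89, 8.74 and 8.79 in U0126 and 8.66, 8.63 and 8.56 in DMSO (difference -0.89, SE 0.0987, adjusted p = 0.000102), with every LY294002 array below every other array. Rictor, the defining subunit of mTOR complex 2, was at 9.25, 8.88 and 8.94 in LY294002, against 8.26, 8.001 and 8.20 in U0126 and 8.51, 8.26 and 8.29 in DMSO (difference 0.87, SE 0.135, adjusted p = 0.00122), with the LY294002 arrays above the rest, although neither of its 2 other tested probe sets was called. Sgk1, a kinase that mTOR complex 2 activates, rose by 0.75 (adjusted p = 0.0037). The FOXO genes moved apart, with Foxo3 at 0.50 (adjusted p = 0.0162) and Foxo4 at -0.31 (adjusted p = 0.0393). Foxo3 lost its call without LY294002 replicate 1 or 2 or U0126 replicate 3 (adjusted p = 0.0555 to 0.0836) and Foxo4 without LY294002 replicate 1 or 2 or U0126 replicate 2 or 3 (adjusted p = 0.0899 to 0.168). Of the 2 other tested probe sets of Foxo3 1 was called the same way and 1 had the opposite sign. The replicate block called 8 higher and 2 lower (9.70% and 4.29% of all probe sets), which added the kinases Pdpk1 (0.38, adjusted p = 0.154, blocked 0.0179) and Mtor (0.32, adjusted p = 0.0519, blocked 0.00979).

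Of 26 components of the Ras, Raf, MEK and ERK pathway, 3 were called higher (against 3.99% of all probe sets) and none lower (list median 0.07). Rps6ka5, the kinase MSK1 downstream of ERK, was at 7.11, 7.12 and 7.29 in LY294002, against 6.77, 6.43 and 6.61 in U0126 and 6.36, 6.33 and 6.56 in DMSO (difference 0.57, SE 0.114, adjusted p = 0.00681). Sos2, a Ras exchange factor, was at 9.48, 9.28 and 9.07 in LY294002 and 8.79, 8.40 and 8.68 in U0126 (0.66, adjusted p = 0.0167), and Mknk2, a kinase of the translation factor eIF4E, at 11.31, 11.06 and 10.96 in LY294002 and 10.74, 10.61 and 10.55 in U0126 (0.48, adjusted p = 0.0119). In each the 3 LY294002 arrays lay above the 3 U0126 arrays. Sos2 lost its call without LY294002 replicate 1 or 2 or U0126 replicate 2 (adjusted p = 0.052 to 0.0947) and Mknk2 without LY294002 replicate 1 or U0126 replicate 3 (adjusted p = 0.0603 to 0.0663). In this list, the number called higher was 1 without LY294002 replicate 1. Its median was 0.0035 after quantile normalization, 0.10 after median centring, 0.027 without LY294002 replicate 1, 0.11 without LY294002 replicate 3, 0.017 without U0126 replicate 2 and 0.025 with the mean of a gene's probe sets.

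Of the genes known as targets of FOXO factors, 8 of 26 tested were called higher, beside 3.99% of all probe sets, with none lower and a list median of 0.24. Txnip, described above, led them. Gadd45a, a stress-induced inhibitor of growth, was at 9.25, 8.91 and 8.89 in LY294002, against 8.02, 7.94 and 8.17 in U0126 and 8.42, 8.05 and 8.25 in DMSO (difference 0.98, SE 0.116, adjusted p = 0.000164). Ccng2, an atypical cyclin found in resting cells, was at 9.85, 9.53 and 9.51 in LY294002, against 8.98, 8.55 and 8.77 in U0126 and 9.20, 8.84 and 8.55 in DMSO (difference 0.86, SE 0.148, adjusted p = 0.0026). Pink1, a mitochondrial kinase, was at 9.46, 9.48 and 9.45 in LY294002, against 8.86, 8.87 and 8.83 in U0126 and 8.85, 8.65 and 8.59 in DMSO (difference 0.61, SE 0.0817, adjusted p = 0.000388). In all of these the LY294002 arrays were the high ones and the U0126 arrays lay near or among those of DMSO. LY294002 minus DMSO was 0.78 in Gadd45a, 0.76 in Ccng2 and 0.77 in Pink1, with adjusted p-values of 0.000918, 0.00482 and 6.81e-05. Against DMSO, 9 of the list were higher and 1 lower in LY294002 (6.83% and 1.78% of all probe sets), and 2 higher and 1 lower in U0126 (1.14% and 0.792%). Rictor, Insr, Irs2 and the pocket protein Rbl2 (0.58, adjusted p = 0.0236) were the other called members. Rbl2 lost its call without LY294002 replicate 1 or U0126 replicate 2 or 3 (adjusted p = 0.0807 to 0.127). Klf2, a Krüppel-like factor, had a difference of 0.52 (adjusted p = 0.0637, blocked 0.00482) and was above DMSO in both inhibitors, by 1.42 in LY294002 and 0.89 in U0126. Ddit4, an inhibitor of mTOR complex 1, went the other way (-0.68, adjusted p = 0.0521, blocked 0.0176). In the FOXO list, the number called higher was 5 without LY294002 replicate 1 or U0126 replicate 3. Its median was 0.12 without LY294002 replicate 1. The replicate block called 11 higher and 1, Ddit4, lower.

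Txnip is shown with its promoter because it headed this list and was the gene of the 12 largest increases with the lowest adjusted p. Its window was also shown because it held the FOXO motif. The window, chr3:96557707-96558006 on the plus strand of GRCm38.p6 from RefSeq, runs from 250 bases before the gene's start to 50 after. Capitals mark the FOXO motif TGTTTAC, read here on the minus strand at positions -121 to -115 from the start. In this and the other windows shown, matches to searched motifs other than those named beside the window are left unmarked.
Txnip: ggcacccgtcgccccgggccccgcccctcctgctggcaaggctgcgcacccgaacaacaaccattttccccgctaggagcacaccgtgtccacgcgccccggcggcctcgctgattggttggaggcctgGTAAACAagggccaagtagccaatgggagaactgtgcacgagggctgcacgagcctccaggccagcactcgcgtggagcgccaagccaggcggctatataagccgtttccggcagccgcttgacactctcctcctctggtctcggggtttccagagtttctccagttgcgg
The motif was searched on both strands. It occurred in 4 of 27 promoters of the FOXO list (14.8%) and in 3.65% of all 32851 promoters of the table. Of the 5 other lists searched, it occurred in 2 of 15 ERK feedback promoters (13.3%) and in 0 to 3.57% of the rest. Other motifs searched did not all follow their lists. The ETS motif CCGGAAG occurred in 1 of 15 ERK feedback promoters (6.67%) and in 8.86% of all promoters. The sterol response motif CACCCCA occurred in 2 of 19 promoters of the cholesterol list (10.5%) and in 7.62% of all. In the FOXO list itself the EGR motif GCGGGGG was more frequent than the FOXO motif, in 9 of 27 (33.3%), beside 10.8% of all. A match is a description of letters only.

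Genes of sterol synthesis were lower in LY294002. All 20 tested genes of cholesterol synthesis and uptake had the lower mean in LY294002, 9 were called lower (against 1.65% of all probe sets), none higher, and the list median was -0.40. Fdps, which makes farnesyl diphosphate, was at 11.38, 11.02 and 10.99 in LY294002, against 12.02, 11.68 and 11.79 in U0126 and 11.92, 11.63 and 11.41 in DMSO (difference -0.70, SE 0.129, adjusted p = 0.0043). Nsdhl, a sterol dehydrogenase, was at 9.98, 9.84 and 9.74 in LY294002, against 10.56, 10.40 and 10.48 in U0126 and 10.38, 10.41 and 10.16 in DMSO (difference -0.63, SE 0.0898, adjusted p = 0.000681). Lss, which closes the sterol rings, was at 10.02, 9.96 and 9.74 in LY294002, against 10.64, 10.43 and 10.33 in U0126 and 10.66, 10.504 and 10.23 in DMSO (difference -0.56, SE 0.115, adjusted p = 0.00825). In each the 3 LY294002 arrays lay below all U0126 arrays, and also below all DMSO arrays. Tm7sf2 (-0.57, adjusted p = 0.0276) and Sc5d (-0.53, adjusted p = 0.0224), late enzymes of the pathway, completed the named members, and Cyp51, Dhcr7, Msmo1 and Fdft1 were the other calls. Tm7sf2 lost its call without LY294002 replicate 1, 2 or 3 or U0126 replicate 1 or 2 (adjusted p = 0.0532 to 0.136), Sc5d without LY294002 replicate 2 or 3 or U0126 replicate 1 or 3 (adjusted p = 0.0569 to 0.0806) and Cyp51 without LY294002 replicate 2 or 3 or U0126 replicate 1, 2 or 3 (adjusted p = 0.0554 to 0.151). Msmo1 lost its call without LY294002 replicate 2 or 3 or U0126 replicate 1 or 3 (adjusted p = 0.0799 to 0.137) and Fdft1 without LY294002 replicate 2 or 3 or U0126 replicate 1 or 2 (adjusted p = 0.0677 to 0.121). In the cholesterol list, the number called lower was 4 without LY294002 replicate 2, LY294002 replicate 3 or U0126 replicate 1. After quantile normalization 16 were called lower. Against DMSO, 4 of the 20 were called lower in LY294002 (1.78% of all probe sets) and none in U0126 (0.792%), where the list median was 0.13.

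**Figure D5:**
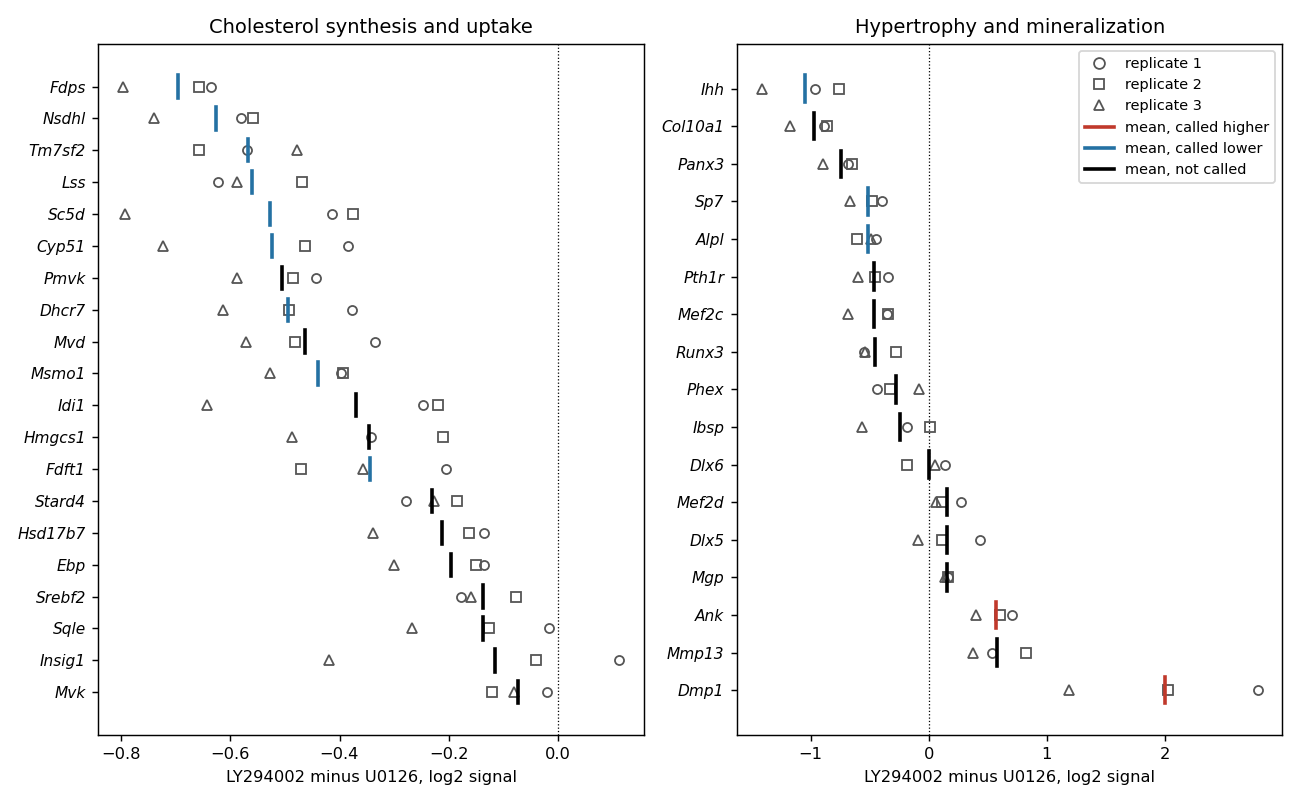
Differences LY294002 minus U0126 within replicates 1, 2 and 3 (circle, square, triangle) and their mean (bar) for the cholesterol list and the hypertrophy list. In the cholesterol list all 20 means lie below 0, and in the hypertrophy list Ihh and Col10a1 lie below 0 in each replicate while Dmp1 lies above it in each.

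Fatty acid synthesis and desaturation had the same direction in 17 of 20 means, with 5 called lower (against 1.65% of all probe sets), none higher and a list median of -0.21. Scd1, the stearoyl-CoA desaturase, was at 11.03, 10.74 and 10.40 in LY294002, against 11.67, 11.63 and 11.49 in U0126 and 11.74, 11.66 and 11.22 in DMSO (difference -0.87, SE 0.151, adjusted p = 0.00275, 1.83-fold). Fads2, a desaturase of polyunsaturated fatty acids, was at 9.48, 9.21 and 9.21 in LY294002, against 10.14, 9.84 and 10.14 in U0126 and 10.25, 9.92 and 9.63 in DMSO (difference -0.74, SE 0.136, adjusted p = 0.0039), and Fads1, its partner, fell by 0.54 (adjusted p = 0.0042). In Scd1 and Fads2 no LY294002 array reached the lowest U0126 array, and LY294002 minus DMSO was -0.82 (adjusted p = 0.00375) in Scd1 and -0.64 (adjusted p = 0.0086) in Fads2. The acyl-CoA synthetase Acsl5 (-0.43, adjusted p = 0.0174) and Mid1ip1, an activator of acetyl-CoA carboxylase (-0.39, adjusted p = 0.016), were called too. Acsl5 lost its call without LY294002 replicate 2 or 3 or U0126 replicate 1 or 3 (adjusted p = 0.0615 to 0.0662) and Mid1ip1 without LY294002 replicate 2 or U0126 replicate 1 or 3 (adjusted p = 0.0559 to 0.0617). In the fatty acid list, the number called lower was 3 without LY294002 replicate 2, U0126 replicate 1 or U0126 replicate 3. The block and, apart from it, quantile normalization each raised the count to 9 lower. All 4 tested adipocyte markers also had the lower mean in LY294002 (median -0.34), with log2 summed signals of 10.99 to 11.31 in LY294002, 11.79 to 11.92 in U0126 and 11.27 to 11.44 in DMSO. No adipocyte marker was itself in the sterol or fatty acid list, and the part of these cells in either result was not tested.

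Lysosome and autophagy genes were higher in LY294002 in 22 of 26 means, with 6 called higher (against 3.99% of all probe sets), none lower and a list median of 0.19. Mitf, a transcription factor of lysosomal genes, was at 9.56, 9.40 and 9.23 in LY294002, against 8.71, 8.44 and 8.52 in U0126 and 9.89, 9.71 and 9.87 in DMSO (difference 0.84, SE 0.0949, adjusted p = 0.000109). Both inhibitors lay below DMSO in Mitf, U0126 further, with -0.42 for LY294002 minus DMSO (adjusted p = 0.0113) and -1.27 for U0126 minus DMSO (adjusted p = 4.11e-06). Map1lc3b, the LC3 protein of autophagosomes, was at 12.15, 12.01 and 12.03 in LY294002, against 11.59, 11.45 and 11.60 in U0126 and 11.59, 11.42 and 11.42 in DMSO (difference 0.52, SE 0.0949, adjusted p = 0.0039), with the LY294002 arrays above all others. The lysosomal enzymes Glb1 (0.42, adjusted p = 0.0229), Ctsa (0.40, adjusted p = 0.0131) and Ctsb (0.36, adjusted p = 0.0383) and the saposin precursor Psap (0.42, adjusted p = 0.0403) also rose, although the other tested probe set of Ctsa had the opposite sign without a call. Glb1 lost its call without LY294002 replicate 1 or U0126 replicate 2 or 3 (adjusted p = 0.0749 to 0.119), Ctsa without LY294002 replicate 1 or U0126 replicate 2 (adjusted p = 0.0598 to 0.0677) and Psap without LY294002 replicate 1 or 2 or U0126 replicate 2 or 3 (adjusted p = 0.0623 to 0.208). Ctsb lost its call without LY294002 replicate 1, 2 or 3 or U0126 replicate 1, 2 or 3 (adjusted p = 0.0523 to 0.168). In the lysosome list, the number called higher was 2 without LY294002 replicate 1 or U0126 replicate 2 and 3 without U0126 replicate 3. Its median was 0.10 after quantile normalization. Macrophage markers, which share lysosomal genes, had 1 of 16 called, Lyz2 (0.53, adjusted p = 0.00977), with log2 summed signals of 11.70 to 11.92 in LY294002, 11.70 to 11.88 in U0126 and 11.85 to 12.23 in DMSO, and their part in the result was not tested.

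The promoters of Ctsa and Glb1 are shown because they hold the CLEAR motif CACGTGA, the element that MITF and TFEB are known to bind. The windows are chr2:164833523-164833822 for Ctsa and chr9:114400828-114401127 for Glb1, both on the plus strand of GRCm38.p6 from RefSeq, and capitals mark the motif on either strand, where overlapping matches join.
Ctsa: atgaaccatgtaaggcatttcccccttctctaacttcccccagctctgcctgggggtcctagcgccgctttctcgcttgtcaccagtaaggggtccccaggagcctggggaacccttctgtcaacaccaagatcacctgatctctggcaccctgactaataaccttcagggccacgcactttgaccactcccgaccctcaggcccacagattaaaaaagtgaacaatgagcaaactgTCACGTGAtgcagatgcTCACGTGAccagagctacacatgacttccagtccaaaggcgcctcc
Glb1: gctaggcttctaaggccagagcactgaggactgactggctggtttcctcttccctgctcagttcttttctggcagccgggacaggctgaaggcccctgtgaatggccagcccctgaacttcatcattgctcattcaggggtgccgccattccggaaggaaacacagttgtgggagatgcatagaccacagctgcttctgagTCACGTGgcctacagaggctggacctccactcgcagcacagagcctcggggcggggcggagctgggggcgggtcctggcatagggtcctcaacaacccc
Ctsa held the motif on both strands, overlapping, once before and once after the start, and Glb1 held it on the minus strand at positions -49 to -43. It occurred in 7 of 29 promoters of the lysosome list (24.1%) and in 3.77% of all promoters, and in 0 to 15.8% of those of the 5 other lists, highest in the cholesterol list.

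Of 23 tested genes of glycolysis and the hypoxia response, 3 were called lower and 1 higher (against 1.65% and 3.99% of all probe sets). The lower mean was in LY294002 in 17 (list median -0.11). Slc16a3, the lactate exporter MCT4, was at 7.8, 7.87 and 7.69 in LY294002, against 8.79, 8.77 and 8.55 in U0126 and 8.501, 8.62 and 8.51 in DMSO (difference -0.91, SE 0.0832, adjusted p = 1.26e-05). Car12, a membrane carbonic anhydrase, was at 7.85, 7.45 and 7.66 in LY294002, against 8.52, 8.26 and 8.90 in U0126 and 8.5, 8.21 and 8.42 in DMSO (difference -0.91, SE 0.136, adjusted p = 0.000943). In both the LY294002 arrays lay below those of U0126 and of DMSO. Car9, a carbonic anhydrase induced by hypoxia, fell by 0.52 (adjusted p = 0.00252), and Ndrg1, also induced by hypoxia, was higher (0.55, adjusted p = 0.0236). Ndrg1 lost its call without LY294002 replicate 1 or 3 or U0126 replicate 2 (adjusted p = 0.0538 to 0.131). The glycolytic enzymes themselves were not called. After quantile normalization 7 of the list were called lower, and no member was called higher without LY294002 replicate 1 or 3 or U0126 replicate 2. The list median was -0.19 after quantile normalization, -0.074 without LY294002 replicate 3 and -0.064 without U0126 replicate 1.

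Genes of protein synthesis moved little. None of 25 tested genes of ribosome biogenesis was called in limma (list median -0.044), and the largest differences were 0.28 for Polr1a, the large subunit of RNA polymerase I (adjusted p = 0.127, blocked 0.0475), and -0.24 for the processing factor Rrp12 (adjusted p = 0.21, blocked 0.0458). None of 14 cytosolic ribosomal proteins was called, though all 14 had the higher mean in LY294002, by 0.40 at most in Rps6 (adjusted p = 0.174, blocked 0.00953), and 0.21 in Rps19 (adjusted p = 0.266). Their median of 0.14 was 0.04 after quantile normalization. In the amino acid response list 1 of 26 was called, Cebpb, a C/EBP transcription factor, at 11.79, 11.66 and 11.62 in LY294002, against 10.76, 10.63 and 10.75 in U0126 and 11.44, 11.26 and 11.29 in DMSO (difference 0.98, SE 0.121, adjusted p = 0.00021). Its U0126 arrays lay below all others, and the list median was -0.084.

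Chemokines, interleukins and their receptors held 11 called increases (against 3.99% of all probe sets) and no decrease among 29 tested, with a list median of 0.38. Tnfsf11, described above, led them. Osmr, the receptor subunit for oncostatin M, was at 11.56, 11.18 and 11.30 in LY294002, against 10.33, 9.84 and 10.31 in U0126 and 10.87, 10.60 and 10.66 in DMSO (difference 1.18, SE 0.139, adjusted p = 0.000158, 2.27-fold), with the LY294002 arrays above those of DMSO and the U0126 arrays below them. Cxcl14, a chemokine of epithelia and stroma, was at 10.36, 9.95 and 10.24 in LY294002, against 8.76, 8.47 and 8.39 in U0126 and 9.41, 9.01 and 9.20 in DMSO on the probe set of its larger difference (difference 1.64, SE 0.123, adjusted p = 1.6e-06). Of the 2 other tested probe sets of Osmr 1 was called the same way and 1 had the opposite sign. The groups of Cxcl14 lay in the same order as those of Osmr, with 0.97 for LY294002 minus DMSO (adjusted p = 0.000248) and -0.66 for U0126 minus DMSO (adjusted p = 0.00731). Il6, an inflammatory interleukin, was at 8.06, 7.31 and 6.18 in LY294002, against 5.95, 6.01 and 4.97 in U0126 and 6.49, 5.94 and 6.29 in DMSO (difference 1.54, SE 0.391, adjusted p = 0.0281), and the lowest LY294002 array, replicate 3, lay just above the highest of U0126. Its U0126 mean of 5.64378 lay just under the signal filter, 5.64386 on the log2 scale, so Il6 was tested only through its LY294002 signal. Cxcl5, a chemokine for neutrophils, was at 10.89, 10.61 and 10.09 in LY294002, against 9.58, 8.75 and 8.72 in U0126 and 11.07, 10.57 and 10.11 in DMSO (difference 1.51, SE 0.397, adjusted p = 0.0337), with the LY294002 arrays inside or near the DMSO range. Il6 lost its call without LY294002 replicate 1 or 2 or U0126 replicate 3 (adjusted p = 0.087 to 0.154) and Cxcl5 without LY294002 replicate 1 or 2 or U0126 replicate 2 or 3 (adjusted p = 0.0934 to 0.147). Over all alternatives the adjusted p reached 0.272 in Il6 and 0.419 in Cxcl5, and with the replicate block it was 0.000598 and 0.000418. The interleukin 1 receptor Il1r1 (0.84, adjusted p = 0.00134), Il11 (0.65, adjusted p = 0.00514), Cxcl12 (0.64, adjusted p = 0.00917), the shared receptor subunit Il6st (0.59, adjusted p = 0.0235) and the macrophage growth factor Csf1 (0.50, adjusted p = 0.012) rose as well. Cxcl12 lost its call without LY294002 replicate 1 (adjusted p = 0.0548), Il6st without LY294002 replicate 1 or 2 or U0126 replicate 2 or 3 (adjusted p = 0.0725 to 0.114) and Csf1 without LY294002 replicate 1 or U0126 replicate 2 (adjusted p = 0.063 to 0.0731). Il1rn, the interleukin 1 receptor antagonist, rose by 0.62 (adjusted p = 0.00358) while both inhibitors stood below DMSO, at -1.02 for LY294002 and -1.64 for U0126. Against DMSO the list had 4 called higher and 4 lower in LY294002 (median -0.08) and none higher and 5 lower in U0126 (median -0.41). The shares of all probe sets called against DMSO were 6.83% higher and 1.78% lower in LY294002, and 1.14% and 0.792% in U0126. In the cytokine list, the number called higher was 6 without LY294002 replicate 1. Of 19 interferon response genes tested, only the guanylate-binding protein Gbp2 was called (0.63, adjusted p = 0.000704), with a list median of -0.043.

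Il6 and Osmr are shown with their promoters because they are a cytokine and a receptor of the same family and both hold an AP-1 motif, TGANTCA, the element bound by Fos and Jun proteins. The windows are chr5:30012864-30013163 on the plus strand for Il6 and chr15:6874264-6874563 on the minus strand for Osmr, in GRCm38.p6 from RefSeq. Capitals mark AP-1 in both and, in Il6, also the cyclic AMP response motif TGACGTC on the minus strand.
Il6: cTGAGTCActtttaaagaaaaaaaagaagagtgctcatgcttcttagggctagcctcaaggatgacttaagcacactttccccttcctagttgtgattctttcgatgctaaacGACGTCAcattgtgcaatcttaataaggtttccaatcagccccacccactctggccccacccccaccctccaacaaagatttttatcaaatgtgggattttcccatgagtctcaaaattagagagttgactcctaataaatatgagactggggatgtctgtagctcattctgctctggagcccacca
Osmr: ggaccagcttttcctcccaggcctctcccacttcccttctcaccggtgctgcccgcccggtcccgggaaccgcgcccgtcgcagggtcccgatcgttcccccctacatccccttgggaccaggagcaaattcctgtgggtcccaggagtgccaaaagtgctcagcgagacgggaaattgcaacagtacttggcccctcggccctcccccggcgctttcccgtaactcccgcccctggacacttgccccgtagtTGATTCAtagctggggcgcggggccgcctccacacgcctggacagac
AP-1 lay at positions -249 to -243 from the start in Il6 and at 3 to 9 in Osmr. It occurred in 7 of 28 promoters of the cytokine list (25.0%) and in 7.81% of all promoters, and in 0 to 13.8% of those of the 5 other lists, highest in the lysosome list. The cyclic AMP response motif occurred in 1 of 28 promoters of the cytokine list (3.57%) and in 3.21% of all, and was most frequent among the 6 lists in the immediate early list, at 7 of 28 (25.0%).

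TGF-beta and BMP signaling had 11 called increases and 2 decreases among 38 tested genes (against 3.99% and 1.65% of all probe sets), with a list median of 0.19. The ID genes, immediate targets of BMP receptors, rose together. Id1 was at 11.61, 11.50 and 11.20 in LY294002, against 10.43, 10.36 and 10.20 in U0126 and 11.14, 10.94 and 10.83 in DMSO (difference 1.10, SE 0.135, adjusted p = 0.000193), with the groups ordered LY294002, DMSO, U0126 without overlap. Id2 (0.65, adjusted p = 0.0166), Id3 (0.61, adjusted p = 0.00295) and Id4 (0.61, adjusted p = 0.00414) were called too, so all 4 ID genes were. Tgfbr3, the co-receptor betaglycan, was at 11.84, 11.51 and 11.49 in LY294002, against 10.65, 10.53 and 10.499 in U0126 and 11.45, 11.16 and 10.97 in DMSO (difference 1.06, SE 0.12, adjusted p = 0.000112). The latent TGF-beta binding protein Ltbp3 was at 11.56, 11.38 and 11.29 in LY294002, against 10.60, 10.51 and 10.60 in U0126 and 10.78, 10.61 and 10.64 in DMSO (difference 0.84, SE 0.0873, adjusted p = 5e-05), with U0126 close to DMSO and LY294002 above. Ltbp2 (0.61, adjusted p = 0.00134), Ltbp1 (0.50, adjusted p = 0.0184), the receptor Tgfbr1 (0.60, adjusted p = 0.00391) and the inhibitory Smads Smad6 (0.52, adjusted p = 0.0043) and Smad7 (0.43, adjusted p = 0.0293) also rose. Lower were Fstl3, an antagonist of activin (-0.46, adjusted p = 0.00941), and the ligand Tgfb3 (-0.32, adjusted p = 0.0184). Id2 lost its call without LY294002 replicate 1 or 2 or U0126 replicate 2 or 3 (adjusted p = 0.0541 to 0.0854), Ltbp1 without LY294002 replicate 1 or 2 or U0126 replicate 2 or 3 (adjusted p = 0.06 to 0.0996) and Smad7 without LY294002 replicate 1 or 2 or U0126 replicate 2 or 3 (adjusted p = 0.0564 to 0.128). Fstl3 lost its call without U0126 replicate 3 (adjusted p = 0.0513) and Tgfb3 without LY294002 replicate 2 or 3 or U0126 replicate 1 or 2 (adjusted p = 0.0569 to 0.0665). In the TGF-beta and BMP list, the number called lower was 1 without LY294002 replicate 2, U0126 replicate 2 or U0126 replicate 3. Under the block 16 were called higher and 5 lower, Nog (-0.52, adjusted p = 0.0644, blocked 0.000519) and Bmp6 (-0.50, adjusted p = 0.0791, blocked 0.0106) among them.

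In the Wnt list 7 of 37 tested genes were called higher and 3 lower, against 3.99% and 1.65% of all probe sets (median 0.10). The secreted antagonists moved both ways. Sfrp1 was at 11.13, 10.89 and 10.84 in LY294002, against 10.16, 10.06 and 9.89 in U0126 and 10.17, 10.07 and 9.97 in DMSO (difference 0.92, SE 0.0992, adjusted p = 7.65e-05), with the LY294002 arrays alone set apart. Sfrp5 was at 8.07, 8.28 and 8.27 in LY294002, against 8.84, 9.09 and 9.28 in U0126 and 8.33, 8.44 and 8.34 in DMSO (difference -0.86, SE 0.106, adjusted p = 0.000204), with the U0126 arrays set furthest apart. Frzb, a Wnt antagonist of cartilage, was at 9.45, 9.34 and 9.32 in LY294002, against 9.94, 9.89 and 10.26 in U0126 and 9.09, 8.85 and 8.91 in DMSO (difference -0.65, SE 0.112, adjusted p = 0.00248), and both inhibitors lay above DMSO. Wif1, another antagonist, was 0.75 higher in LY294002 than in U0126 (adjusted p = 0.00707). It had 0.14 for LY294002 minus DMSO (adjusted p = 0.577) and -0.61 for U0126 minus DMSO (adjusted p = 0.0469). Ccn4, a Wnt-induced matrix protein, was at -0.57, adjusted p = 0.0392. The receptors Fzd1 (0.46, adjusted p = 0.00785), Fzd4 (0.51, adjusted p = 0.0106), Fzd7 (0.43, adjusted p = 0.0398) and Lrp6 (0.37, adjusted p = 0.0227) and the factor Lef1 (0.34, adjusted p = 0.0443) were higher in LY294002. Ccn4 lost its call without LY294002 replicate 1, 2 or 3 or U0126 replicate 1 or 3 (adjusted p = 0.0506 to 0.121), Fzd4 without LY294002 replicate 1 or U0126 replicate 2 or 3 (adjusted p = 0.0589 to 0.0614) and Fzd7 without LY294002 replicate 1 or 2 or U0126 replicate 2 or 3 (adjusted p = 0.0642 to 0.188). Lrp6 lost its call without LY294002 replicate 1 or 2 or U0126 replicate 2 (adjusted p = 0.0644 to 0.117) and Lef1 without LY294002 replicate 1 or 2 or U0126 replicate 1 or 3 (adjusted p = 0.102 to 0.156). In the Wnt list, the number called higher was 3 without LY294002 replicate 1 and 4 without LY294002 replicate 2, U0126 replicate 2 or U0126 replicate 3. Its median was 0.028 after quantile normalization and 0.063 without LY294002 replicate 1. In the blocked fit 11 were called higher and 3 lower.

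The cartilage matrix differed little between the inhibitors. Of 27 tested genes of cartilage matrix and SOX factors, 1 was called, lower, and the median was -0.012. That gene was Fmod, the collagen-binding proteoglycan fibromodulin, at 11.20, 11.35 and 11.34 in LY294002, against 11.91, 11.93 and 12.20 in U0126 and 10.95, 11.08 and 11.03 in DMSO (difference -0.72, SE 0.121, adjusted p = 0.0023), and all 5 of its other tested probe sets were called the same way. Acan, the large proteoglycan aggrecan, was at 12.76, 12.72 and 12.87 in LY294002 and 12.95, 12.89 and 13.30 in U0126 (-0.27, adjusted p = 0.309), and Sox9, the master factor of chondrocytes, at 11.08, 10.94 and 10.99 in LY294002 and 10.58, 10.76 and 10.98 in U0126 (0.23, adjusted p = 0.412). Against DMSO the list medians were 0.33 for LY294002 (9 called higher, 1 lower) and 0.43 for U0126 (7 higher, 1 lower). Beside these counts, 6.83% of all probe sets were called higher and 1.78% lower in LY294002 than in DMSO, and 1.14% and 0.792% in U0126. With the replicate block 1 was called higher and 5 lower, including Matn3 (-0.34, adjusted p = 0.274, blocked 0.0229) and Ucma (-0.34, adjusted p = 0.126, blocked 0.0135).

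Genes of hypertrophy and mineralization were split. Of 17 tested, 3 were called lower and 2 higher in LY294002 (against 1.65% and 3.99% of all probe sets), with a list median of -0.28. Ihh, the hedgehog ligand of prehypertrophic chondrocytes, was at 7.19, 7.39 and 7.81 in LY294002, against 8.16, 8.16 and 9.22 in U0126 and 7.14, 7.34 and 7.81 in DMSO (difference -1.05, SE 0.236, adjusted p = 0.0153). Its LY294002 arrays matched DMSO within 0.032 on average, and its U0126 arrays lay above. Col10a1, the collagen of hypertrophic cartilage, was at 10.13, 10.36 and 11.30 in LY294002, against 11.02, 11.22 and 12.47 in U0126 and 9.63, 10.13 and 11.36 in DMSO (difference -0.97, adjusted p = 0.248, blocked 1.94e-05). Replicate 3 was the highest in every treatment, so the groups overlapped, while the differences within replicates were -0.89, -0.86 and -1.17. Sp7, the osteoblast factor osterix (-0.52, adjusted p = 0.0201), and the alkaline phosphatase Alpl (-0.52, adjusted p = 0.0496) were called lower. Higher were Dmp1, described above, and Ank, a transporter for pyrophosphate, at 10.76, 10.62 and 10.54 in LY294002, against 10.05, 10.02 and 10.14 in U0126 and 11.05, 11.01 and 10.91 in DMSO (difference 0.57, SE 0.0929, adjusted p = 0.00173), with the order DMSO, LY294002, U0126. Ihh lost its call without LY294002 replicate 1 or 2 or U0126 replicate 3 (adjusted p = 0.0534 to 0.0807), Sp7 without LY294002 replicate 1 or 2 or U0126 replicate 2 or 3 (adjusted p = 0.0579 to 0.094) and Alpl without LY294002 replicate 1 or 2 or U0126 replicate 2 or 3 (adjusted p = 0.119 to 0.212). In the hypertrophy list, the number called higher was 1 without LY294002 replicate 1, LY294002 replicate 2, U0126 replicate 1, U0126 replicate 2 or U0126 replicate 3. The number called lower was 0 without LY294002 replicate 1, LY294002 replicate 2 or U0126 replicate 3. The replicate block called 8 lower and 2 higher, adding Panx3 (-0.74, adjusted p = 0.26, blocked 0.0252), Pth1r (-0.47, adjusted p = 0.208, blocked 0.0044), Mef2c and Runx3 to Col10a1. Blocked adjusted p-values were 7.35e-05 for Ihh, 0.00132 for Sp7 and 0.000474 for Alpl.

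Of 24 tested extracellular proteases and inhibitors, 3 were called higher and 1 lower, against 3.99% and 1.65% of all probe sets (list median 0.10). Plat, tissue plasminogen activator, was at 8.98, 9.03 and 9.06 in LY294002, against 8.27, 8.27 and 8.48 in U0126 and 9.24, 9.21 and 9.25 in DMSO (difference 0.68, SE 0.0909, adjusted p = 0.000359). Adamts9, a protease of versican and aggrecan, was at 10.499, 10.25 and 10.32 in LY294002, against 9.75, 9.51 and 9.82 in U0126 and 9.03, 9.03 and 9.05 in DMSO (difference 0.67, SE 0.0889, adjusted p = 0.000377). The U0126 arrays were the low ones in Plat, whereas in Adamts9 both inhibitors lay above DMSO and LY294002 highest. In each gene its other tested probe set had the opposite sign without a call. The metalloprotease inhibitor Timp1 was called higher (0.55, adjusted p = 0.033) and the aggrecanase Adamts4 lower (-0.44, adjusted p = 0.0122). Timp1 lost its call without LY294002 replicate 1, 2 or 3 or U0126 replicate 1 or 2 (adjusted p = 0.0571 to 0.151) and Adamts4 without LY294002 replicate 1 or U0126 replicate 3 (adjusted p = 0.0649 to 0.0696).

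F13a1, Phlda2, Nr4a1 and Adamts5 were the genes the study followed up in other assays. Phlda2, an imprinted gene that restrains growth of the placenta, was at 7.37, 7.32 and 7.45 in LY294002, against 8.27, 8.20 and 8.51 in U0126 and 8.36, 8.34 and 8.502 in DMSO (difference -0.95, SE 0.103, adjusted p = 7.79e-05), with every LY294002 array below every other array. F13a1, the A subunit of coagulation factor XIII, was at 8.22, 7.65 and 7.64 in LY294002, against 7.99, 7.70 and 7.796 in U0126 and 8.57, 8.30 and 8.44 in DMSO (difference 0.012, SE 0.165, adjusted p = 0.975). Its LY294002 and U0126 arrays overlapped, the 95% interval of the difference was -0.34 to 0.36, and the differences from DMSO were -0.60 for LY294002 minus DMSO (adjusted p = 0.0329) and -0.61 for U0126 minus DMSO (adjusted p = 0.0752). Nr4a1, an orphan nuclear receptor, was at 11.11, 11.58 and 9.55 in LY294002, against 9.83, 10.11 and 9.54 in U0126 and 8.85, 9.49 and 9.31 in DMSO (0.92, adjusted p = 0.304, blocked 0.0471), and the aggrecanase Adamts5 at 10.68, 10.38 and 10.28 in LY294002, against 10.30, 9.86 and 9.95 in U0126 and 9.97, 9.43 and 9.70 in DMSO (0.41, adjusted p = 0.134, blocked 0.0479). The arrays of the inhibitors overlapped in both.

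Smooth muscle actin and SRF cytoskeletal genes had 3 called decreases (against 1.65% of all probe sets) and no increase among 21 tested, with a median of 0.029. Cnn1, calponin, was at 7.89, 7.90 and 8.03 in LY294002, against 8.85, 8.92 and 8.74 in U0126 and 7.63, 7.83 and 7.89 in DMSO (difference -0.89, SE 0.0896, adjusted p = 3.35e-05). Myl9, a myosin light chain, was at 11.65, 11.55 and 11.44 in LY294002, against 12.14, 11.97 and 11.90 in U0126 and 10.95, 10.94 and 10.91 in DMSO (difference -0.46, SE 0.0841, adjusted p = 0.00387). Lmod1, leiomodin, was 0.49 lower in LY294002 than in U0126 (adjusted p = 0.00176). It had 0.18 for LY294002 minus DMSO (adjusted p = 0.173) and 0.68 for U0126 minus DMSO (adjusted p = 0.000159). In Cnn1 the U0126 arrays alone were high, and in Myl9 both inhibitors lay above DMSO. Against DMSO 8 of the list were called higher in LY294002 and 6 in U0126 (6.83% and 1.14% of all probe sets), and none lower. With the replicate block 5 were called lower, adding Acta2 and Actg2. Skeletal muscle markers were also lower in LY294002 on average, with 22 of 23 means lower, and their part in this result was not tested.

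The aryl hydrocarbon receptor and the metallothioneins were higher in LY294002 than in U0126. Ahr, the receptor itself, was at 9.81, 9.53 and 9.19 in LY294002, against 8.56, 8.24 and 8.40 in U0126 and 9.32, 9.30 and 9.14 in DMSO (difference 1.11, SE 0.137, adjusted p = 0.000207), with the U0126 arrays below all others, although its other tested probe set had the opposite sign. None of the other 7 tested members of its list was called (list median -0.18). The block called 2 higher and 3 lower, the repressor Ahrr (-0.57, adjusted p = 0.108, blocked 0.00656) among them. Mt2, a metal-binding metallothionein, was at 11.70, 11.59 and 11.56 in LY294002, against 10.38, 10.63 and 10.56 in U0126 and 11.46, 11.47 and 11.39 in DMSO (difference 1.09, SE 0.0964, adjusted p = 9.99e-06), and Mt1 was higher by 0.69 (adjusted p = 0.00529). U0126 minus DMSO was -0.91 in Mt2 (adjusted p = 4.94e-05) and -0.93 in Mt1 (adjusted p = 0.000787). LY294002 minus DMSO was 0.18 in Mt2 (adjusted p = 0.272) and -0.24 in Mt1 (adjusted p = 0.273). In the list of NRF2 genes and metallothioneins 2 of 16 were called higher and 2 lower (median -0.16), the lower being the glutathione transferase Gsta4 (-0.75, adjusted p = 0.00234) and sulfiredoxin, Srxn1 (-0.36, adjusted p = 0.0445). Srxn1 lost its call without LY294002 replicate 1, 2 or 3 or U0126 replicate 1 or 3 (adjusted p = 0.065 to 0.168). In the blocked fit of this list 2 were called higher and 5 lower.

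No gene of the cell cycle and DNA replication list was called, of 29 tested, though 23 had the higher mean in LY294002 and the median was 0.14. Mki67, the proliferation marker Ki-67, was at 10.91, 10.62 and 10.60 in LY294002 and 10.58, 9.91 and 10.28 in U0126 (0.46, adjusted p = 0.0916, blocked 0.00222), and was called without U0126 replicate 1 (adjusted p = 0.0249). Cyclin E2, Ccne2, was at 9.60, 9.55 and 9.31 in LY294002 and 9.37, 8.89 and 8.90 in U0126 (0.43, adjusted p = 0.155, blocked 0.0471). The list median was 0.065 after quantile normalization, 0.06 without LY294002 replicate 1, 0.21 without U0126 replicate 1 and 0.078 without U0126 replicate 2. With the replicate block 3 were called higher, Mki67, Ccne2 and Mcm7. Of 14 D cyclins and CDK inhibitors 1 was called, Rbl2, with a median of 0.12, and the blocked fit called 5 higher and 1 lower. Among 18 p53 targets and BCL2 family genes none was called in limma (median -0.0094). The survival gene Bcl2 had a difference of 0.38 (adjusted p = 0.0817, blocked 0.0157) and its proapoptotic relative Bak1 -0.36 (adjusted p = 0.0502, blocked 0.0149, 0.0238 without LY294002 replicate 1).

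Markers of other cells in the culture moved unevenly. Of 23 tested skeletal muscle markers 22 had the lower mean in LY294002, 2 were called lower, Tnnc2 (-1.45, adjusted p = 0.0462) and Myh8 (-0.92, adjusted p = 0.0346), and the median was -0.39. Their log2 summed signals were 12.05 to 12.91 in LY294002, 12.53 to 13.48 in U0126 and 12.21 to 13.26 in DMSO, ranges that overlapped, and 11 were called lower with the replicate block. Tnnc2 lost its call without LY294002 replicate 2 or 3 or U0126 replicate 1 or 2 (adjusted p = 0.119 to 0.145) and Myh8 without LY294002 replicate 2 or 3 or U0126 replicate 1 or 2 (adjusted p = 0.0882 to 0.111). For the muscle markers, the number called lower was 0 without LY294002 replicate 2, LY294002 replicate 3, U0126 replicate 1 or U0126 replicate 2 and 4 without LY294002 replicate 1 or U0126 replicate 3. Their median was -0.61 without LY294002 replicate 1 and -0.61 without U0126 replicate 3. Fibroblast and perichondrium markers had 3 of 20 called higher, Pdgfra, Fap and Twist2, and 3 lower, Postn (-0.84, adjusted p = 0.0248), Dpt (-0.76, adjusted p = 0.00849) and Mfap5 (-0.64, adjusted p = 0.00201), with summed signals of 16.01 to 16.25 in LY294002, 16.04 to 16.21 in U0126 and 15.88 to 16.17 in DMSO. Postn lost its call without LY294002 replicate 2 or 3 or U0126 replicate 1 or 2 (adjusted p = 0.0774 to 0.0928), Fap without LY294002 replicate 1 or U0126 replicate 2 or 3 (adjusted p = 0.0528 to 0.0788) and Twist2 without LY294002 replicate 1 or U0126 replicate 2 or 3 (adjusted p = 0.0857 to 0.148). For the fibroblast markers, the number called higher was 0 without LY294002 replicate 1, U0126 replicate 2 or U0126 replicate 3. Lpl, lipoprotein lipase, was the called adipocyte marker of 4 tested (-0.83, adjusted p = 0.000943), at 10.69, 10.43 and 10.29 in LY294002, against 11.23, 11.20 and 11.46 in U0126 and 10.51, 10.33 and 10.14 in DMSO. Single calls were made among 10 endothelial markers (Eng, 0.27), 10 keratinocyte and epithelial markers (Krt7, -0.68) and 9 osteoclast markers (Ctsk, -0.34), and none among 5 erythroid markers. Krt7 lost its call without LY294002 replicate 2 or U0126 replicate 2 or 3 (adjusted p = 0.0516 to 0.077). The log2 summed signals of these 3 marker lists did not overlap between the inhibitors. Those of endothelial markers were 11.40 to 11.46 in LY294002, 11.26 to 11.34 in U0126 and 11.36 to 11.42 in DMSO. Those of keratinocyte markers were 11.61 to 11.74 in LY294002, 11.77 to 11.86 in U0126 and 12.03 to 12.12 in DMSO. Those of osteoclast markers were 11.37 to 11.44 in LY294002, 11.55 to 11.65 in U0126 and 11.58 to 11.602 in DMSO. The erythroid markers, at 9.296 to 9.37 in LY294002, 9.39 to 9.51 in U0126 and 9.38 to 9.56 in DMSO, did not overlap between the inhibitors either, and the adipocyte sums are given with the fatty acid list. Such lack of overlap was common, with LY294002 wholly above U0126 in 13.3% of all probe sets tested and wholly below in 10.2%. The sums include markers under the filter, and a change in cell content was not tested. Eng and Ctsk lost their calls without any 1 of the 6 arrays (adjusted p = 0.0787 to 0.186 and 0.0558 to 0.19). No marker was at 0, since array signals have a floor above it.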

How the data were processed

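Mouse primary chondrocytes were measured on Affymetrix whole-genome arrays, 15 in all, 3 for each of 5 treatments, grouped by the sample labels. The authors deposited log2 signals in 1 table of 45101 probe sets, already background-corrected, normalized and summarised by a robust multi-array method; whether GC-RMA or plain RMA was used is not settled by the sources used here, and raw intensities were not used here. Precision is set by how many arrays there are, and p-values measure only the spread between them. After 64 array controls were left out, probe sets were named from the platform annotation, 34945 of them with 1 symbol, 932 with several and 9160 with none.

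A linear model with a mean for every treatment, over the 15 arrays and with 10 residual degrees of freedom, was fitted with limma 3.58.1 under R 4.3.3. Probe sets with a mean signal of at least 50 in either group were tested, two-sided, with Benjamini-Hochberg adjustment over all of them. On simulated data of 34402 probe sets, the fit found 53.0% of the genes changed 1.4-fold and 95.0% of those changed 2-fold, and 11 of its 159 calls were false. The simulated noise was independent between arrays, without the shared deviation of same-numbered arrays, and 100 probe sets were changed at each fold. These rates therefore need not hold for the measured arrays.

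The members and lists were chosen with earlier results of these data known. Named genes were the 12 largest called increases and decreases without overlap of arrays, the 5 most changed among a list's called members (or the 2 largest where none was called), and 4 genes the study followed; other members are named for their role, after their values were seen. A gene of a list was represented by its brightest probe set. Pdgfra, Foxo4, Mknk2, Lss, Sc5d, Fads1, Car12, Rbl2, Mt1, Srxn1, Adamts4, Ccn4 and Car3 had other tested probe sets, none of which was called. The 27 lists and 9 marker lists held 828 entries, of which 766 had a probe set of their own and 734 passed the filter.

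The replicate number is taken as a pairing because the methods describe 3 independent experiments, the array serials run on within a number, and LY294002 and U0126 arrays of the same number deviated together from their group means (r = 0.681, 0.452 and 0.299 across probe sets, for replicates 1, 2 and 3). Between different numbers r ran from -0.635 to 0.395. LY294002 replicate 3 was closer to U0126 replicate 2 (r = 0.395) than to U0126 replicate 3, so the pairing is least clear for replicate 3. The fit with it as a block, other filters, normalizations, priors and omissions of arrays were the alternatives, and the omissions were made without the block. Promoters of 82 of 112 named genes were matched in the RefSeq table of GRCm38.p6.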

Additional observations from a re-analysis of the deposited data

How the results depend on the processing

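Under the alternatives run, the differences of 113 named genes kept their direction except that of F13a1, which was not called (0.012, range -0.18 to 0.11), and of 36 list medians 8, all small, changed sign under some setting. Beside 1376 probe sets higher and 569 lower, the replicate block called 3347 and 1481, the block on the 6 arrays 4532 and 2352, and the 6 arrays alone 738 and 301. Quantile normalization called 1573 and 1172, so that 57.3% of calls were higher in LY294002 against 70.7% in the deposited values, while centring each array on its median called 1517 and 394, or 79.4% higher. Leaving out 1 array gave 507 to 1476 higher and 314 to 442 lower, and 552 to 1364 at least 1.4-fold higher. Leaving out replicate 1, 2 or 3 in every treatment gave 720, 116 or 444 higher and 354, 65 or 154 lower, and 1332 at least 1.4-fold higher without replicate 3. Of 102 called named genes, 66 kept their call without each single array. The block changed no named call beyond those given with a blocked p. The number of arrays and the treatment time, 24 h or 2 h by source, limit these values, and the dose of U0126 is not known here.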
